A study of Mus musculus with 8 samples.

Results

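The 10 genes described here encode the core chaperones, proteases and scaffold proteins that maintain proteins inside the mitochondrion. They were taken by symbol (*Hspd1*, *Hspe1*, *Hspa9*, *Lonp1*, *Clpp*, *Clpx*, *Afg3l2*, *Yme1l1*, *Phb* and *Phb2*) and make up 10 of the 55536 genes counted by RNA sequencing. Each symbol matched 1 Ensembl gene on the GRCm38 mouse genome, and all 10 passed the filter on low counts. As background, most mitochondrial proteins are made in the cytosol, threaded unfolded through both mitochondrial membranes and folded inside. The heat shock protein HSPA9 pulls them in, the HSPD1-HSPE1 chamber folds them, and ATP-dependent proteases remove what is damaged or in excess. Activated CD8+ T cells enlarge their mitochondria as they grow and divide, and the same machinery serves the proteins that the mitochondrial genome encodes.

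The RNA came from mouse CD8+ T cells that had been treated with GC7, an inhibitor of deoxyhypusine synthase, the enzyme that begins the conversion of a lysine of the translation factor eIF5a to hypusine. Lymph node donors were C57BL/6 mice, juvenile to young adult, that carried the OT-1 T cell receptor transgene on a *Rag1* knockout background with CD45.1 or CD45.2 congenic alleles, so both groups lacked *Rag1* and held a single T cell receptor specificity. Cells of both groups were activated for 2 days with 100 nM of the SIINFEKL peptide, washed, and kept for a further 2 days in 20 ng/ml IL-2 with 10 µM GC7 (GC7, 4 libraries) or the acetic acid vehicle (mock, 4 libraries). The study calls the 4 samples of each group biological replicates, but the labels do not tie them to separate mice or cultures, so the p-values measure the spread between these samples. GC7 has effects beyond eIF5a by the study's own account, and a lower level of an RNA in bulk libraries can mean less of it per cell or fewer cells of the kind that makes it, which cannot be told apart.

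Between 17528776 and 25284730 counts were assigned to genes per library. Values below are CPM, counts brought to a common library size with TMM (trimmed mean of M-values) factors, given as mean ± SD over 4 libraries. A gene was called changed when the edgeR quasi-likelihood test gave an FDR (Benjamini-Hochberg adjusted p over 11189 genes tested) under 0.01. Among all genes tested, 23.5% were called lower and 23% higher in GC7-treated cells, a split of 49.5% higher among the called genes that became 61.9% when libraries were scaled by their totals alone. Mock replicate 2 lay farthest from its group's median in 60.2% of genes tested and GC7 replicate 3 in 49.98%. Calls of the 10 genes that changed without either are given with that value. For the other genes named below, changes of single calls without these libraries are not given. The 6 CD8 T cell markers summed to 2624 to 3198 CPM in the mock and 2548 to 2748 CPM in the GC7 libraries, but they did not move together. *Cd8a* was called higher (log2 fold change 0.48, FDR = 3.4e-05), *Cd2* (-0.61, FDR = 1.4e-05), *Cd3g* (-0.37, FDR = 0.0041) and *Cd3e* (-0.23, FDR = 0.0079) lower, and *Cd3d* and *Cd8b1* were not called. *Cd4* stayed between 0.111 and 0.407 CPM. The 4 B cell markers summed to 0.510 to 0.947 CPM in mock and 0.581 to 1.22 CPM in GC7 libraries, the 4 myeloid markers to 0 to 0.255 and 0 to 0.555 CPM, the 2 NK cell markers to 0.0423 to 0.249 and 0.0555 to 0.724 CPM, and the 2 erythroid markers to 0.255 to 0.399 and 0.317 to 0.777 CPM. Of these lists and the stromal and endothelial one, *Ms4a1*, *Pax5*, *Col3a1* and *Cdh5* had 0 counts in all 8 libraries. The 3 dendritic cell markers summed to 4.40 to 6.00 CPM in mock and 0.444 to 1.18 CPM in GC7 libraries. Of them only *Xcr1* passed the filter on low counts (5.11 ± 0.735 CPM in mock and 0.628 ± 0.186 CPM in GC7 libraries). The stromal and endothelial markers, nearly all *Pecam1*, summed to 51.2 to 55.9 and 30.1 to 31.9 CPM. Messenger RNA of the mitochondrial genome took 1.67 to 1.78% of counts in mock and 0.118 to 0.146% in GC7 libraries. The part of these differences in the results below was not tested.

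Of the 10 genes, 2 rose, 3 fell and 5 were not called in GC7-treated cells (background among all genes 23% higher and 23.5% lower). The chaperonin pair *Hspd1* and *Hspe1* rose, while the matrix protease gene *Lonp1*, the inner membrane protease gene *Afg3l2* and the prohibitin gene *Phb* fell. *Hspa9*, *Clpp*, *Clpx*, *Yme1l1* and *Phb2* did not pass the test. With the added requirement of more than a 2-fold change, 1 of the 10 was lower, *Afg3l2* (background 5.31%), and 0 were higher by edgeR, DESeq2 or limma-voom (background 3.17%), and at an unadjusted p under 0.05 in edgeR the latter count was also 0. All 4 GC7 libraries were above all 4 mock libraries for 2 of the 10 genes (28.1% of all genes tested) and below them for 4 of the 10 (27.5%). The median log2 fold change of the 10 genes was 0.05, that of all genes tested 0.02, and the median of its absolute value was 0.30 for the 10 and 0.29 for all genes. As a group the 10 genes therefore had counts of calls, median and spread close to those of all genes, with members on both sides of no change. Together they took 0.216 to 0.227% of counts in mock and 0.224 to 0.253% in GC7 libraries, ranges that overlap.

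**Figure D1:**
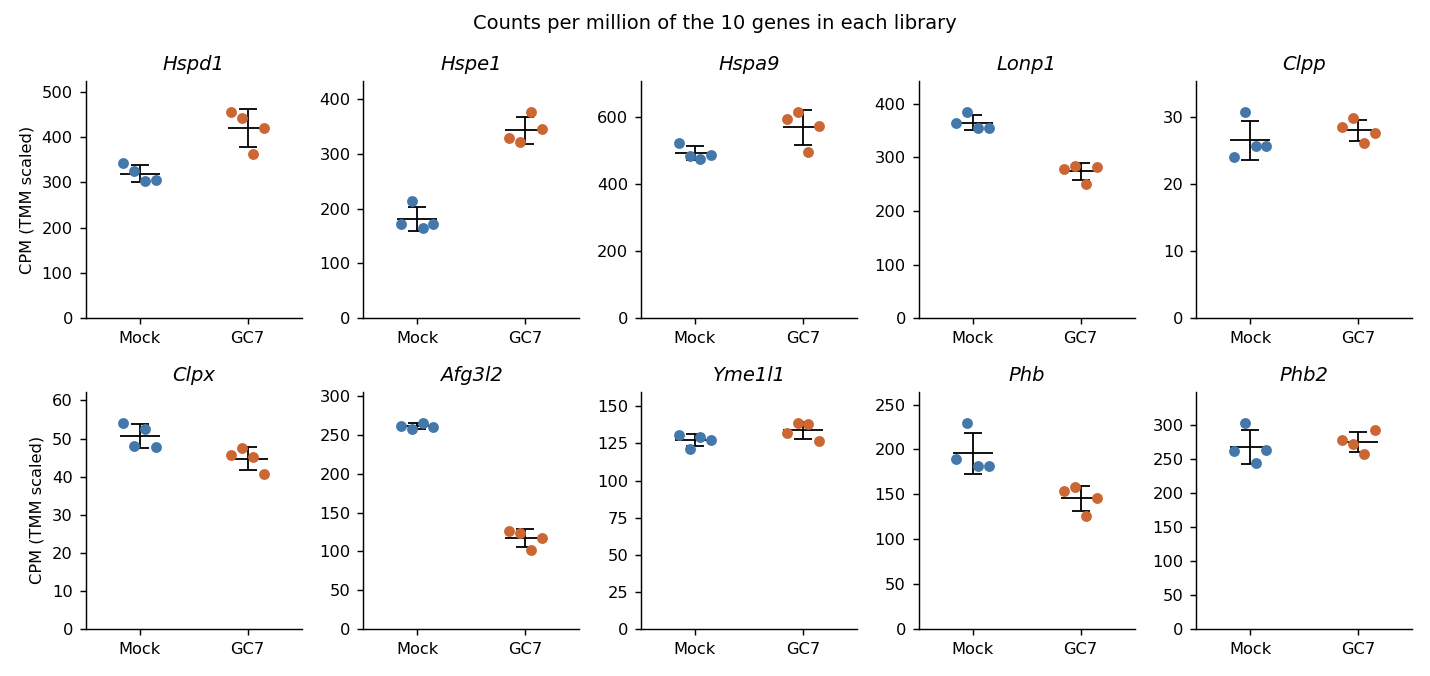
TMM-scaled CPM (y axis, from 0, one scale per gene) of the 10 genes in the 4 mock (blue) and 4 GC7 (orange) libraries. Points are libraries, in replicate order from left to right, long bars the mean and whiskers ± 1 SD. For *Afg3l2* the mock libraries lie between 257 and 266 CPM and the GC7 libraries between 101 and 127, while those of *Phb2* overlap.

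Compared per length, as CPM per kilobase of exon, the chaperone genes had the highest values of the 10. The ATP-dependent protease genes other than *Lonp1* had the lowest. Length was that of all annotated exons of a gene merged, from 1223 bases for *Clpp* to 9874 for *Afg3l2*. It may differ from that of the transcripts present, so the order of genes rests on this choice. By CPM alone, mock *Afg3l2* (262 ± 3.57) was near *Phb2* (268 ± 25.2) and above *Hspe1* (181 ± 22.3). In mock-treated cells *Hspe1* stood at 123 ± 15.1, *Hspd1* at 121 ± 7.08 and *Hspa9* at 114 ± 4.96 CPM per kilobase, and neighbours in this order overlapped between libraries. *Lonp1* (83.3 ± 3.22), *Phb2* (72.0 ± 6.78) and *Phb* (69.7 ± 8.22) followed, each overlapping the next. *Afg3l2* (26.5 ± 0.361), *Clpp* (21.7 ± 2.40) and *Yme1l1* (15.9 ± 0.501) were lower, with no overlap between successive genes, and *Clpx* (14.5 ± 0.920) overlapped *Yme1l1*. In GC7-treated cells *Hspe1* led at 233 ± 16.5 CPM per kilobase and was apart from *Hspd1* (159 ± 15.7), which overlapped *Hspa9* (132 ± 12.1). *Phb2* (73.8 ± 3.85) came before *Lonp1* (62.6 ± 3.62) and *Phb* (51.9 ± 5.01), with gaps between all 3. *Afg3l2* moved from rank 7 to rank 10 of the 10, at 11.9 ± 1.16 CPM per kilobase, and overlapped *Clpx* (12.8 ± 0.841).

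**Figure D2:**
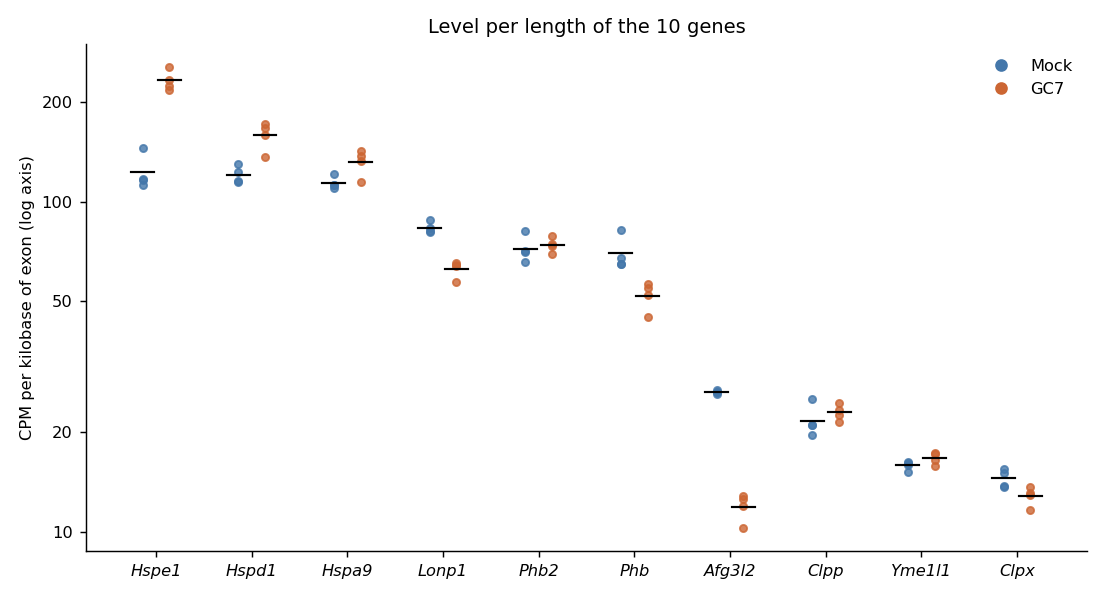
Level per length of the 10 genes, in TMM-scaled CPM per kilobase of exon on a log axis, ordered by the mock mean. Points are libraries (mock blue, GC7 orange) and black lines group means. *Hspe1* rises from 123 to 233 and *Afg3l2* falls from 26.5 to 11.9, while the points of *Phb2*, *Clpp* and *Yme1l1* overlap between groups.

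The chaperonin was measured through both of its subunits. *Hspd1* (chromosome 1, 55077835 to 55088243, minus strand) encodes HSP60, the barrel that encloses an unfolded protein, and *Hspe1* (chromosome 1, 55088132 to 55091307, plus strand) encodes HSP10, the lid that closes it. *Hspe1* measured 172, 214, 166 and 172 CPM in mock libraries 1 to 4 and 329.6, 322, 377 and 345 CPM in GC7 libraries 1 to 4. Every GC7 library was above every mock library, with mock replicate 2 the highest of its group. Mean CPM went from 181 ± 22.3 up to 343 ± 24.4 (log2 fold change 0.92 ± 0.087 SE, FDR = 2.45e-06). Without mock replicate 2 the estimate was 1.01, just past 2-fold, and it was 1.02 with library totals as the scale.

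*Hspd1* measured 343, 325, 303 and 304 CPM in mock libraries 1 to 4 and 455, 442, 362 and 420.1 CPM in GC7 libraries 1 to 4. The groups did not overlap, and GC7 replicate 3 was the lowest of the treated libraries. Mean CPM was 319 ± 18.7 in mock-treated and 419.6 ± 41.4 in GC7-treated cells (log2 fold change 0.40 ± 0.079, FDR = 9.7e-04). In GC7 replicate 3 *Hspd1* was lowest and *Hspe1* highest among the treated libraries. The counts of *Hspd1* over those of *Hspe1* in the same library, a ratio that does not depend on scaling between libraries, were 1.99, 1.52, 1.83 and 1.77 in mock and 1.38, 1.37, 0.959 and 1.22 in GC7 libraries 1 to 4. No GC7 library reached the lowest mock library. The lid gene therefore rose by more than the barrel gene, with a log2 difference in the ratio of -0.54 ± 0.15 (SE, two-sided exact permutation test, p = 0.0286, adjusted p = 0.0429 over 12 ratios). The exons of both genes share 112 bases on opposite strands, 4.24% of the exon length of *Hspd1* and 7.60% of that of *Hspe1*. The strand setting of the counting is not given in the sources used here, and reads from those bases may be assigned to either gene or neither. The largest of the processed copies of *Hspd1*, *Hspd1-ps3*, held counts equal to at most 1.38% of those of *Hspd1*.

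The genes lie on opposite strands with their starts close together, and *Hspd1* has more than 1 annotated start. Its longest transcript begins at 55088024, before the annotated start of *Hspe1* (55088132), whereas the gene as a whole extends to 55088243, so that transcripts from the upstream start run through the beginning of *Hspe1*. RefSeq gives starts at 55087932 and 55088243 for *Hspd1* and 55088148 for *Hspe1*. The stretch between the start of the longest *Hspd1* transcript and that of *Hspe1* is shown because both genes rose. It holds 2 overlapping matches to the heat shock element, the site that the heat shock factor HSF1 is known to bind, printed in capitals. The element was searched as 3 units, GAA, TTC and GAA, each parted from the next by any 2 letters, on both strands. The 18 capital bases begin at 55088059, 35 bases from the start of the longest *Hspd1* transcript and 56 from that of *Hspe1*, and they lie within the gene for transcripts from the upstream *Hspd1* start. Of the RefSeq windows of 300 bases (250 before and 50 after a start), those of the downstream *Hspd1* start and of *Hspe1* overlap and hold the same 2 matches, and that of the upstream *Hspd1* start holds 0. Such windows held the element in 0.603% of 32851 promoters. The match describes the letters of the reference genome and says nothing of binding in these cells, and which start was used was not measured.
Hspd1-Hspe1, chr1:55088025-55088131, plus strand: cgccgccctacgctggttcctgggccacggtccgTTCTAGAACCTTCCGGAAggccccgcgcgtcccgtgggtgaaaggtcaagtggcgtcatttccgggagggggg

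*Hspa9*, the mitochondrial HSP70 that drives import and hands proteins to the chaperonin, did not pass the test. Its libraries held 524, 484, 475 and 486 CPM in mock and 594, 615, 495 and 572 CPM in GC7 replicates 1 to 4. GC7 replicate 3 lay inside the range of the mock libraries and the other 3 lay above it. Its mean was 492 ± 21.4 CPM without and 569 ± 52.2 CPM with GC7 (log2 fold change 0.21 ± 0.075, FDR = 0.0296). It was called without GC7 replicate 3 (0.28, FDR = 0.0022) and with library totals (0.30, FDR = 0.0048), and its FDR ranged to 0.0997 with other libraries left out. Relative to *Hspd1* in the same library, *Hspa9* fell in all 4 treated libraries, from a count ratio of 1.55 ± 0.0456 to 1.36 ± 0.0380 (log2 difference -0.19 ± 0.030, exact permutation p = 0.0286, adjusted p = 0.0429).

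Among the matrix proteases, *Lonp1* and the 2 genes of the ClpXP complex did not share a call. *Lonp1* (chromosome 17, 56614297 to 56626887, minus strand) encodes the LON protease, which degrades oxidised and misfolded matrix proteins and also binds mitochondrial DNA. It measured 363, 385, 354 and 355 CPM in mock and 279, 285, 250.4 and 282 CPM in GC7 libraries 1 to 4. All treated libraries were below all mock libraries, with GC7 replicate 3 the lowest. Mean CPM went from 364 ± 14.1 down to 274 ± 15.8 (log2 fold change -0.41 ± 0.063, FDR = 1.31e-04).

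*Clpp*, the proteolytic chamber of ClpXP, measured 24.0, 30.8, 25.7 and 25.7 CPM in mock and 28.6, 29.9, 26.2 and 27.7 CPM in GC7 libraries 1 to 4, overlapping ranges with a log2 fold change of 0.08 ± 0.086 (FDR = 0.44). This estimate was 0.16 without mock replicate 2, 0.12 without GC7 replicate 3 and 0.025 without mock replicate 1, and *Clpp* was not called in any of these fits. *Clpx*, the unfoldase that feeds it and also acts on haem synthesis, measured 54.2, 48.1, 52.6 and 47.8 CPM in mock and 45.7, 47.6, 45.0 and 40.6 CPM in GC7 libraries. All 4 treated libraries of *Clpx* were lower, by a margin of less than the spread within the mock group, and the log2 fold change of -0.18 ± 0.072 missed the threshold (FDR = 0.046). The ratio of *Clpx* to *Clpp* counts was 1.93 ± 0.294 in mock and 1.59 ± 0.102 in GC7 libraries, which overlapped (log2 difference -0.27 ± 0.12, exact permutation p = 0.114, adjusted p = 0.125). *Lonp1* fell relative to *Clpp*, from a ratio of 13.8 ± 1.08 to 9.76 ± 0.305 (log2 difference -0.50 ± 0.061, exact permutation p = 0.0286, adjusted p = 0.0429). It also fell relative to *Lonp2*, its peroxisomal counterpart, from 5.62 ± 0.101 to 4.59 ± 0.298 (-0.29 ± 0.050, exact permutation p = 0.0286, adjusted p = 0.0429). *Lonp2* itself was not called (log2 fold change -0.12, FDR = 0.080).

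*Afg3l2* had the largest change of the 10. It is on chromosome 18 (67404764 to 67449172, minus strand) and encodes a subunit of the m-AAA protease, an inner membrane enzyme that faces the matrix, clears unassembled respiratory chain subunits and processes the mitochondrial ribosomal protein MRPL32. The mock libraries held 261, 257, 266 and 261 CPM and the GC7 libraries 127, 124, 101 and 118 CPM, in replicate order. The highest treated library was below the lowest mock library, and the spread within the mock group (SD 1.36% of the mean) was smaller than within the GC7 group (9.72%). The fitted level was 2.22-fold lower with GC7, at means of 262 ± 3.57 and 118 ± 11.4 CPM (log2 fold change -1.15 ± 0.072, FDR = 6.8e-08). Over the 21 alternatives its log2 fold change stayed between -1.19 and -1.06. Of all genes tested, 4.12% had a lower log2 fold change. Stretches of about 200 bases of its exons match *Topbp1*, *Slc37a1* and *Aktip*, among others, at up to 91.1% identity. Of these *Topbp1* (log2 fold change 0.10, FDR = 0.27) and *Slc37a1* (-0.037, FDR = 0.70) were not called and *Aktip* was higher (0.56, FDR = 9.6e-04).

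*Spg7*, which encodes another subunit of the m-AAA protease, was also lower, from 63.3 ± 4.001 to 47.9 ± 2.68 CPM (log2 fold change -0.40 ± 0.068, FDR = 3.1e-04). Its subunit partner *Afg3l2* fell by more, since the ratio of *Afg3l2* to *Spg7* counts in the same library dropped from 4.15 ± 0.301 to 2.45 ± 0.151 (log2 difference -0.76 ± 0.070, exact permutation p = 0.0286, adjusted p = 0.0429). *Yme1l1* encodes the i-AAA protease, which faces the space between the membranes and cuts the fusion protein OPA1. It measured 130.5, 122, 129.6 and 127 CPM in mock and 132, 139, 138 and 127 CPM in GC7 libraries 1 to 4, with overlapping groups and a log2 fold change of 0.07 ± 0.057 (FDR = 0.29). The count ratio of the m-AAA gene *Afg3l2* to the i-AAA gene *Yme1l1* was 2.00, 2.12, 2.05 and 2.05 in mock and 0.963, 0.893, 0.734 and 0.931 in GC7 libraries 1 to 4. This was the largest shift among the 12 ratios compared, -1.23 ± 0.089 on the log2 scale (exact permutation p = 0.0286, adjusted p = 0.0429). *Oma1*, the stress-activated protease that also cuts OPA1, was not called (log2 fold change 0.04, FDR = 0.69), and the ratio of *Yme1l1* to *Oma1* was 6.79 ± 0.420 in mock and 6.95 ± 0.162 in GC7 libraries (log2 difference 0.04 ± 0.047, exact permutation p = 0.486, adjusted p = 0.486).

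Genes whose pattern over the 8 libraries was nearest to that of *Afg3l2* were looked for among 10191 other tested protein-coding genes, by the root mean square difference in log2 CPM after centring each gene on its own mean. The nearest were *Pfkp*, the platelet-type phosphofructokinase of glycolysis (difference 0.034), *Ppme1*, a phosphatase methylesterase (0.044), and *Rara*, a retinoic acid receptor (0.064). Their log2 fold changes were -1.16, -1.16 and -1.21, close to that of *Afg3l2* by the way they were chosen. The likeness covers a single contrast and 8 libraries.

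**Figure D3:**
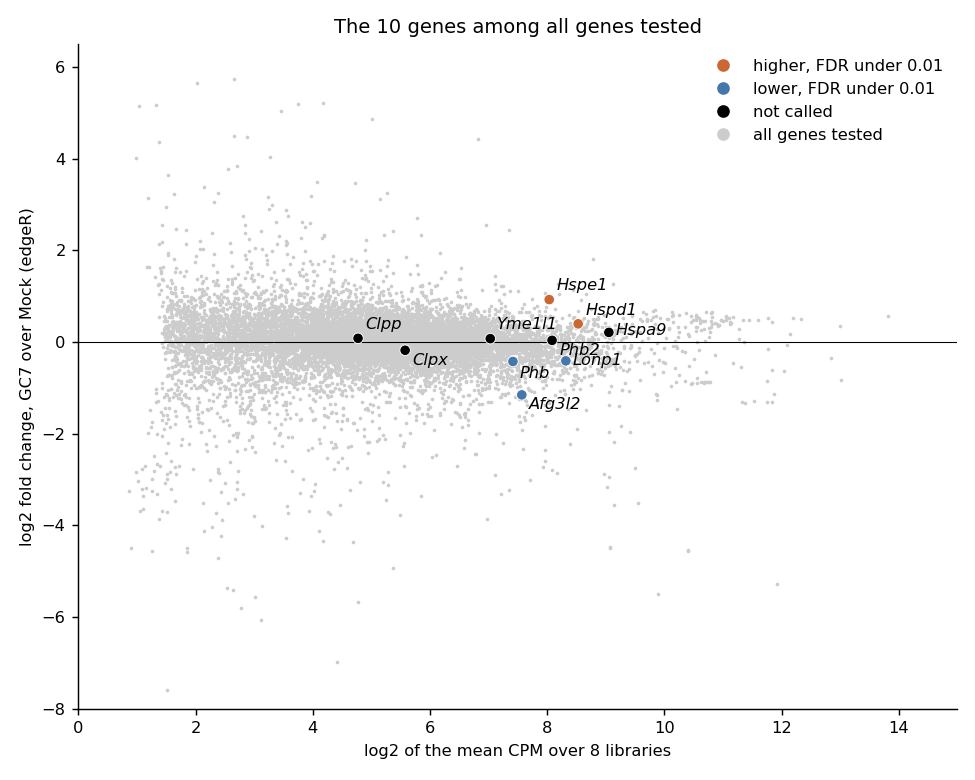
The 10 genes among all 11189 genes tested. The x axis is the log2 of the mean CPM over 8 libraries and the y axis the log2 fold change of GC7 over mock. Grey points are all genes, coloured points those of the 10 called higher (orange) or lower (blue) and black points those not called. *Hspe1* (0.92) lies above 96.3% of all genes tested, *Afg3l2* (-1.15) above 4.12% and *Phb2* (0.04) above 51.8%.

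The prohibitins *Phb* and *Phb2* encode the partner subunits of ring-shaped scaffolds in the inner membrane, which bind the m-AAA protease, and each protein is known to need the other for stability. *Phb* (chromosome 11, 95666957 to 95680773, plus strand) measured 189.5, 229.8, 181 and 182 CPM in mock and 153, 158, 126 and 146 CPM in GC7 libraries 1 to 4. The groups did not overlap, mock replicate 2 was the highest and GC7 replicate 3 the lowest. Mean CPM dropped to 146 ± 14.1 from 196 ± 23.1 (log2 fold change -0.43 ± 0.092, FDR = 0.0017). *Phb2* (chromosome 6, 124712336 to 124716950, plus strand) measured 261, 303, 244 and 263 CPM in mock and 277, 272, 257 and 292 CPM in GC7 libraries, overlapping, with a log2 fold change of 0.04 ± 0.074 (FDR = 0.69).

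The partners therefore differed in response. The ratio of *Phb* to *Phb2* counts was 0.727, 0.758, 0.744 and 0.691 in mock and 0.553, 0.579, 0.489 and 0.501 in GC7 libraries 1 to 4, with no overlap (log2 difference -0.46 ± 0.064, exact permutation p = 0.0286, adjusted p = 0.0429). Mock replicate 2 was the highest mock library for both genes, and the SD of the log2 ratio over the mock libraries was 0.058. Reads of *Phb* can also match its processed copies. *Gm7666*, at 99.9% identity, held counts equal to at most 1.97% of those of *Phb*, and adding the counts of copies back left the call of *Phb* as it was. A stretch of 339 bases of *Phb* exon is identical in *Fyb*, a T cell adaptor gene at 131 ± 12.2 CPM in mock and 155 ± 16.3 CPM in GC7 libraries that was not called (FDR = 0.027).

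The 250 bases before the RefSeq starts of *Lonp1*, *Phb* and *Phb2* are given because the first 2 were called lower and the third, the partner of *Phb*, was not. Capitals mark the E-box CACGTG (known for MYC and related factors) and the GC box GGGCGG in *Lonp1*, the E-box and the CCAAT box in *Phb*, and the ETS core CCGGAAGT and the GC box in *Phb2*, on either strand. Windows of 300 bases, 9 in all, covered 8 of the 10 genes and not *Hspa9* or *Afg3l2*. An E-box was found in 3, those of *Lonp1*, *Phb* and the upstream start of *Hspd1*, against 7.15% of 32851 promoters. The GC box was found in 7 of 9 windows (35.7% of all promoters) and the CCAAT box in 4 (37.4%). The NRF-1 site, a pair of GCGC with any 2 letters between, was found in 4 (6.23%). Those 4 were the windows of both *Hspd1* starts, of the adjoining *Hspe1* and of *Phb*, so they do not count as separate promoters. All promoters were used for the shares, without matching for G and C content. Neither the CRE TGACGTCA (1.79% of all promoters) nor the CARE TGATGNAAN, a site known for ATF4 and ATF5 (3.95%), was found in any of the 9 windows, and the ETS core was found in 1 (3.89%). Windows of *Hspd1* and *Hspe1* overlap each other, and matches to different motifs may share bases.
Lonp1, chr17:56626904-56627153, minus strand: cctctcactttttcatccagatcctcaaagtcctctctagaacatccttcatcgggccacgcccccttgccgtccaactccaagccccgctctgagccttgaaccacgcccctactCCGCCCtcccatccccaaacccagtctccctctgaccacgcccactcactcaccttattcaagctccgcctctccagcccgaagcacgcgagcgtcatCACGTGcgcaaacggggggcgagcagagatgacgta
Phb, chr11:95666707-95666956, plus strand: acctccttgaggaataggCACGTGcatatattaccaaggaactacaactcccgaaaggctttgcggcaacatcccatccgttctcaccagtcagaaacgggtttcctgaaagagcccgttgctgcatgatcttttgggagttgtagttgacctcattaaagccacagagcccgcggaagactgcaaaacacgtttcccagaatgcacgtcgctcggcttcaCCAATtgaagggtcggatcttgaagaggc
Phb2, chr6:124712039-124712288, plus strand: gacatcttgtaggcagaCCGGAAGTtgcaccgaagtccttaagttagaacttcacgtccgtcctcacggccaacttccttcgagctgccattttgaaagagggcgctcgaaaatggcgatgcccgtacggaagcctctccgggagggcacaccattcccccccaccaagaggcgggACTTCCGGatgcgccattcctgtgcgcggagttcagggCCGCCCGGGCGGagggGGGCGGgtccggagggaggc

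Counterparts outside the mitochondrion gave a further comparison for the chaperones. *Tcp1*, a subunit of the cytosolic chaperonin, was not called (log2 fold change -0.07, FDR = 0.31), and the ratio of *Hspd1* to *Tcp1* rose from 0.676 ± 0.0424 to 0.936 ± 0.122 (log2 difference 0.46 ± 0.11, exact permutation p = 0.0286, adjusted p = 0.0429). *Hspa8*, the constitutive cytosolic HSP70, rose from 3107 ± 224 to 4177 ± 142 CPM (log2 fold change 0.43, FDR = 3.8e-04). The ratio of *Hspa9* to *Hspa8* was 0.159 ± 0.0119 in mock and 0.136 ± 0.00860 in GC7 libraries, with overlap (log2 difference -0.22 ± 0.072, exact permutation p = 0.0571, adjusted p = 0.0762). *Hspa5*, the HSP70 of the endoplasmic reticulum, was not called (log2 fold change 0.04, FDR = 0.55), and the ratio of *Hspa9* to *Hspa5*, 1.17 ± 0.0548 in mock and 1.31 ± 0.127 in GC7 libraries, overlapped as well (0.16 ± 0.079, exact permutation p = 0.114, adjusted p = 0.125). In all, 8 of the 12 ratios had an adjusted p under 0.05, each at the smallest p that 4 against 4 libraries allow (0.0286). The share among pairs of other genes was not computed, and some genes serve in several ratios. Of single genes tested, 28.1% had all GC7 libraries above all mock libraries and 27.5% had them below. The 12 ratios are ratios of counts, so they compare the groups and not the levels of a pair of genes.

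**Figure D4:**
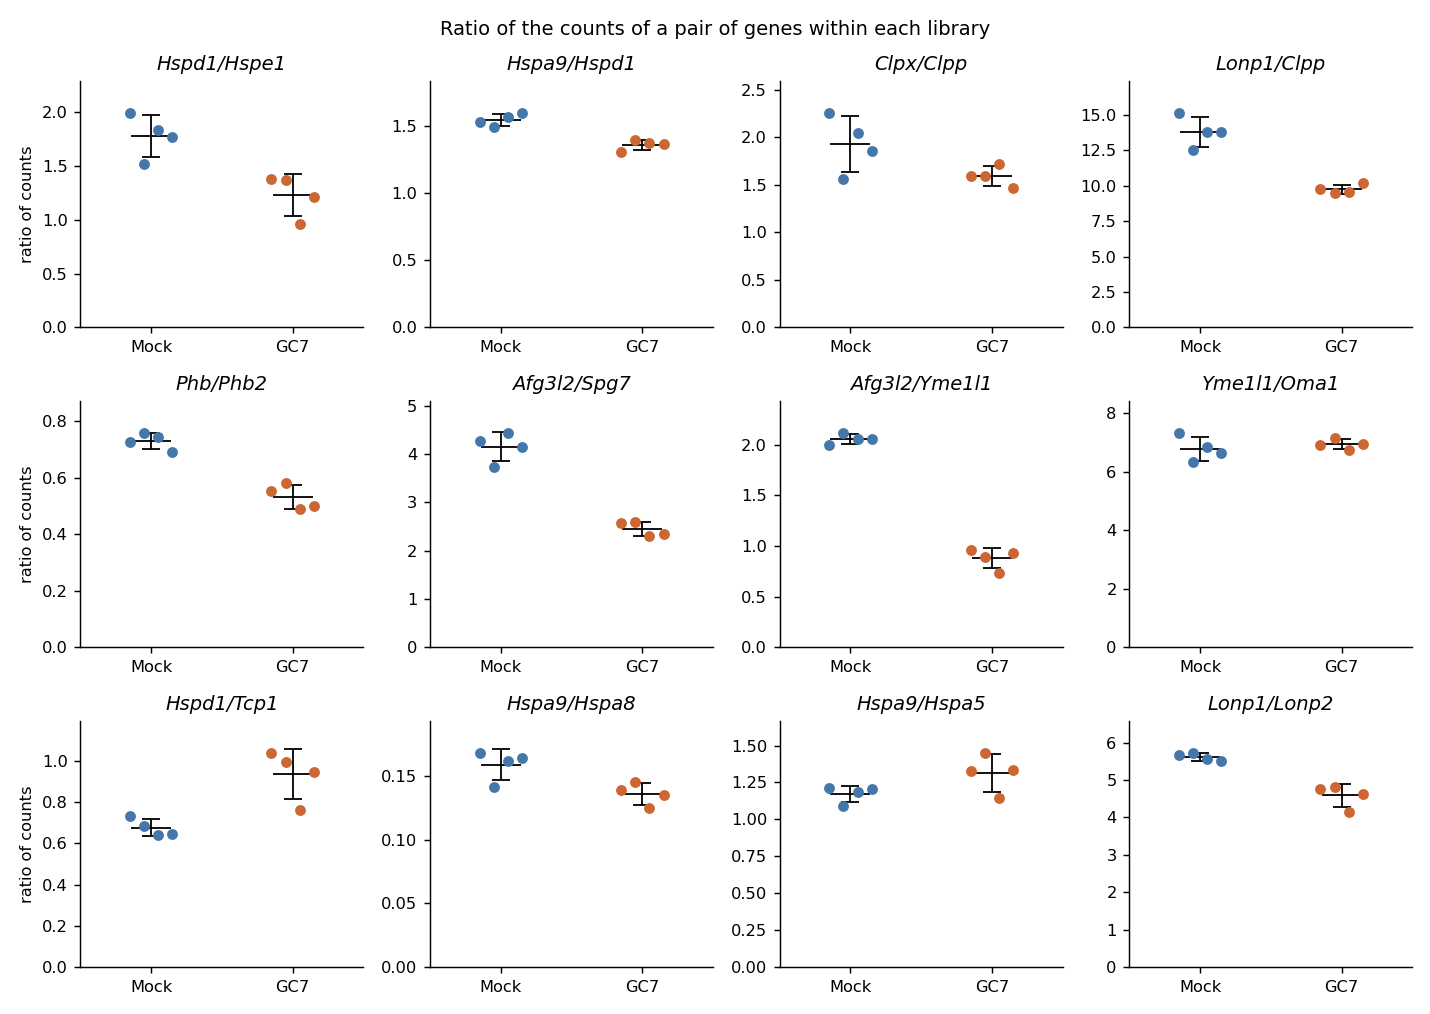
Ratio of the counts of a pair of genes within each library (y axis from 0, one scale per ratio) in 4 mock (blue) and 4 GC7 (orange) libraries, with the mean and ± 1 SD. The groups do not overlap in 8 of the 12 panels, and the share among pairs of other genes was not computed. *Afg3l2*/*Yme1l1* drops from 2.06 to 0.880, and *Yme1l1*/*Oma1* stays near 6.79 and 6.95 with overlap.

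A further 40 genes of mitochondrial protein quality control, in 4 lists, were all detected and tested. Of these 9 were called higher and 5 lower (background 23% and 23.5%), with a median log2 fold change of 0.09, and 26 were not called. Among 10 other chaperone genes, 3 rose and 2 fell. The co-chaperones that exchange nucleotide on HSPA9 were called in opposite directions. *Grpel2* rose from 14.7 ± 0.602 to 24.1 ± 1.16 CPM (log2 fold change 0.72 ± 0.073, FDR = 4.7e-06), and *Grpel1*, their other member, fell from 60.8 ± 5.61 to 49.5 ± 2.21 CPM (-0.30 ± 0.074, FDR = 0.0041). *Clpb*, a disaggregase of the space between the membranes, rose from 35.8 ± 1.22 to 47.6 ± 2.67 CPM (0.41 ± 0.065, FDR = 1.8e-04), and *Trap1*, the mitochondrial HSP90, fell from 160.3 ± 7.68 to 123 ± 8.10 CPM (-0.38 ± 0.065, FDR = 3.1e-04).

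Among 13 other protease genes, 4 rose and 1, *Spg7*, fell (background here and for the next list 23% higher and 23.5% lower). *Lactb*, which forms filaments between the membranes, had the largest rise, measuring 12.1, 14.8, 13.3 and 13.0 CPM in mock and 28.9, 23.0, 25.2 and 25.2 CPM in GC7 libraries 1 to 4 (log2 fold change 0.94 ± 0.092, FDR = 3.4e-06). The groups were far apart for this gene. Of 9 genes for partners and substrates of the proteases, 1 was called, *Prelid1*, a lipid carrier between the membranes that YME1L1 is known to degrade. It fell from 715 ± 80.6 to 492 ± 41.6 CPM (-0.54 ± 0.090, FDR = 2.6e-04). *Opa1* (-0.13, FDR = 0.11) and *Mrpl32* (0.17, FDR = 0.049), substrates of the inner membrane proteases, were not called.

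Of 8 regulators of the mitochondrial stress response, 2 rose and 1 fell, near the background of 23% higher and 23.5% lower. *Atf5*, the transcription factor linked to the mitochondrial unfolded protein response, measured 23.6, 24.2, 23.6 and 22.03 CPM in mock and 39.9, 46.5, 34.5 and 41.4 CPM in GC7 libraries 1 to 4. No treated library came near the mock range, and the log2 fold change was 0.80 ± 0.088 (FDR = 9.4e-06). *Hsf1*, the heat shock factor, rose from 38.1 ± 2.14 to 49.3 ± 2.78 CPM (0.37 ± 0.068, FDR = 5.4e-04). *Sirt3*, the main deacetylase of the matrix, fell from 19.4 ± 0.525 to 13.5 ± 1.32 CPM (-0.53 ± 0.086, FDR = 2.1e-04). The integrated stress response genes *Atf4* (-0.11, FDR = 0.18), *Ddit3* (0.09, FDR = 0.40) and *Cebpb* (-0.06, FDR = 0.78) were not called. Nor were *Eif2ak1* (0.12, FDR = 0.092) and *Dele1* (-0.02, FDR = 0.77), the kinase and the messenger that relay mitochondrial stress to the cytosol.

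**Figure D5:**
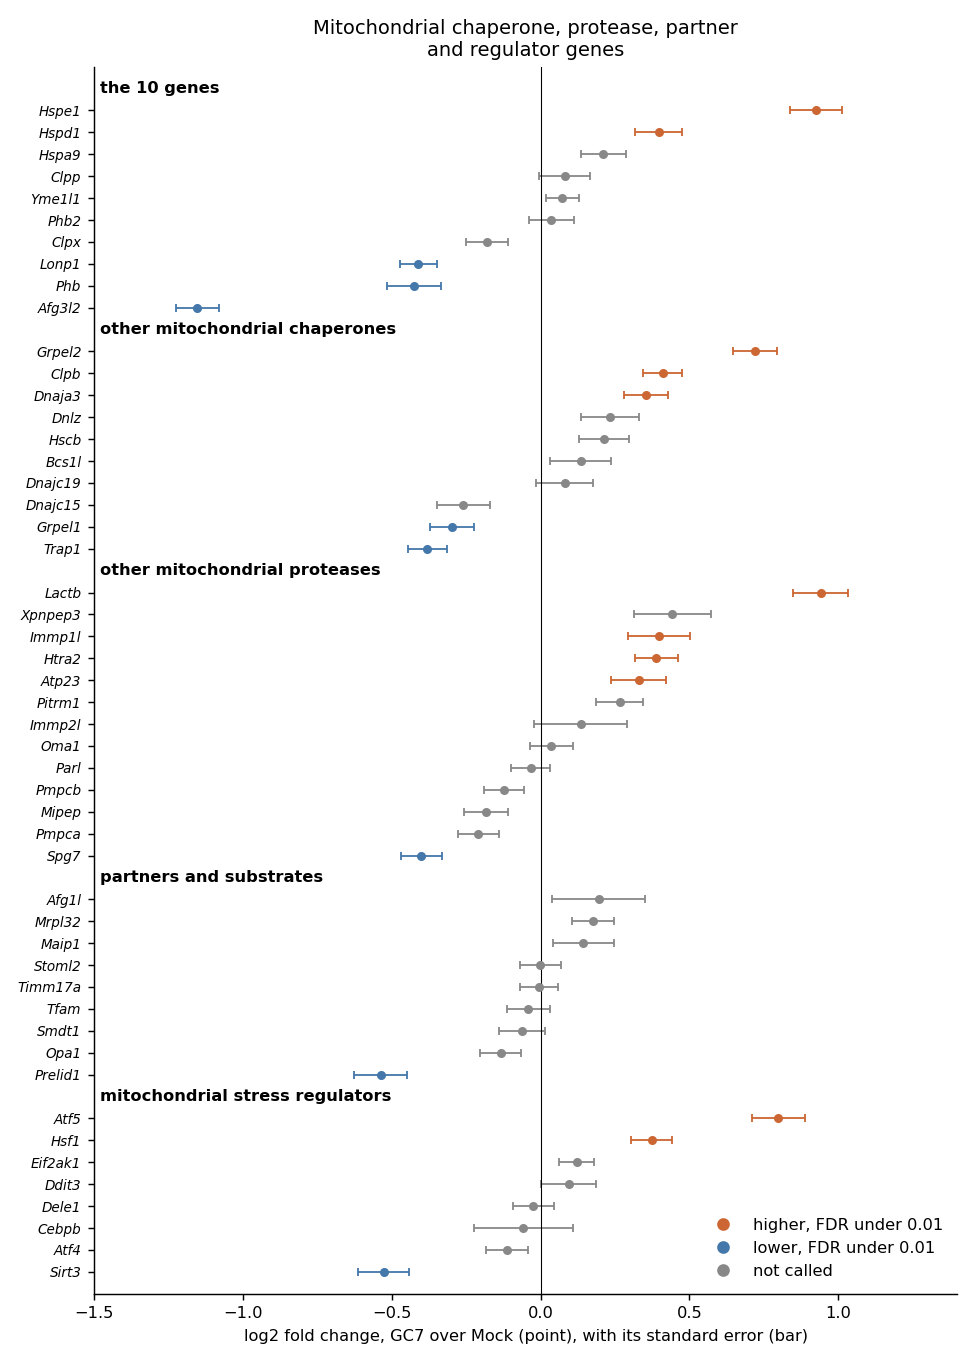
Log2 fold change of GC7 over mock (x axis) with its standard error (bars) for the 10 genes and 40 other genes of mitochondrial protein quality control, by list and ordered by value. Orange points were called higher and blue points lower at an FDR under 0.01, grey points were not called. Each list holds genes on both sides of 0, and *Afg3l2* (-1.15) lies farthest to the left.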

How the data were processed

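Messenger RNA of mouse CD8+ T cells was sequenced in 8 libraries, 4 GC7 and 4 mock, grouped by the sample labels. The authors deposited raw counts per gene, 1 file per library, made from paired-end reads trimmed with Cutadapt, aligned to GRCm38 with STAR and counted with featureCounts. The strand setting and the handling of reads with several matches are not given in the sources used here.

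From these counts, genes over 3 CPM in at least 4 libraries were kept and tested with edgeR (version 4.0.16, R version 4.3.3), using TMM factors and a quasi-likelihood fit on the group alone, and p-values were adjusted by Benjamini-Hochberg over 11189 genes. The SE of a log2 fold change was its absolute value over the square root of the F statistic of the test. The fit was tested on simulated data. Ratios of counts (0.5 added to each) used two-sided exact permutation tests (scipy version 1.17.1) adjusted over 12 ratios. Exon lengths came from GENCODE M21, copies from BLAST (version 2.17.0, at least 200 bases and 90% identity), and promoters from RefSeq on GRCm38.p6. Promoter windows were used for 8 of the 10 genes. *Hspa9* and *Afg3l2*, both on chromosome 18, were not included.

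The 10 genes and the lists were chosen with earlier results of these data known. Named are the 10 genes, the 4 other called genes per direction with the largest change, every regulator and ratio gene, and the 3 genes nearest to the largest change. *Grpel1*, *Opa1* and *Mrpl32* were added after their values were seen. Alternatives were RLE factors, library totals, no mitochondrially encoded genes, no filter, filterByExpr, DESeq2 (version 1.42.0), limma-voom (limma version 3.58.1), robust estimation, glmTreat, a replicate block, an FDR under 0.05, copies added, and each library left out. Figures used matplotlib (version 3.10.9).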

Additional observations from a re-analysis of the deposited data

Results flagged for a closer look

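Dixon's ratio, the gap of the highest or lowest library to its nearest neighbour over the range of the group, was computed for the 10 genes and the 12 ratios in each group, 44 groups of 4 libraries. It passed the critical value for 4 libraries in 3, and chance alone flags about 1 in 20 groups. Mock replicate 2 stood above the other mock libraries for *Hspe1* (ratio 0.867, 214 CPM against 166 to 172) and for *Phb* (0.830, 229.8 CPM against 181 to 189.5). GC7 replicate 3 stood below the other treated libraries for *Lonp1* (0.838, 250.4 CPM against 279 to 285). All 3 genes remained called without the library concerned.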

How the results depend on the processing

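Each gene was refitted under 21 alternatives. *Hspe1*, *Afg3l2*, *Clpp* and *Yme1l1* kept their direction and their side of the threshold in 21 of 21. *Hspd1*, *Lonp1* and *Phb* kept theirs in 20 of 21 and lost the call in glmTreat, which asks for a change beyond 1.5-fold and left 1 of the 10 genes lower and 1 higher. Of all 11189 genes, glmTreat called 707 lower and 403 higher. *Clpx* was called at an FDR under 0.05, as was *Hspa9*. *Hspa9* was also called with library totals, without GC7 replicate 3 and, chosen after seeing the data, without mock replicate 2 and GC7 replicate 3 together (log2 fold change 0.27). *Phb2* turned to -0.015 without mock replicate 3, still not called (-0.015 to 0.097 with 1 library left out). The count of genes higher by over 2-fold became 1 with library totals, under which the median log2 fold change of all genes was 0.11 instead of 0.02, and ranged from 0 to 1 with 1 library left out. Over its 11 alternatives the count called among the 40 other genes ranged from 11 to 18 (14 as reported). It was 18 with library totals, 17 without mock replicate 2, 14 without GC7 replicate 3 and 11 without GC7 replicate 2. Among all genes, 2058 were called lower and 3346 higher of 11189 with library totals. Without mock replicate 2 these counts were 2733 and 2785 of 11013, and without GC7 replicate 3 2499 and 2329 of 11015. Without GC7 replicate 2 they were 2290 and 2085 of 11015, and as reported 2635 and 2579 of 11189. Whether the replicate numbers pair the samples could not be settled from correlated deviations, because 4 pairs are few and the correlations were weak. They were over 0.1 in 2 of 4 same-numbered pairs (r from -0.18 to 0.27, mean 0.044). Among 12 differently numbered pairs, 2 were over 0.1 (r from -0.31 to 0.42, mean -0.020). Samples did not each correlate best with their own number. A fit blocked on replicate called 3 of the 10 genes lower and 2 higher, and 12 of the 40 others. The same fit called 2485 of all 11189 genes lower and 2382 higher. The ratios kept their direction in all alternatives. With 1 library left out the smallest exact p is 0.0571 and with 4 pairs 0.125, so these runs could not pass 0.05. With no value added to the counts, 8 ratios passed. At least 471 counts lay behind each value of the 10 genes.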
